A study of Mus musculus with 6 samples.

Results

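Ptgds, Igfbp2, Lum and Ogn are 4 secreted-protein genes tied to the leptomeninges, the thin membranes that cover the cortex. They were chosen by gene name as 4 of the 1375 genes in the authors' deposited table for the prefrontal cortex of C57bl/6j male mice. All 6 mice were siblings housed 3 per cage that had received ketamine, an NMDA receptor antagonist, as an intraperitoneal dose of 10 mg/kg, and the cortex was collected 24 hours later. Novelty suppressed feeding and a forced swimming test had classed them as 3 nonresponders (NR) and 3 responders (Res), and both groups carry batch number 1. The genotype label of each sample gives response class only, and no untreated mice were among the samples. RNA came from whole prefrontal tissue, labelled as holding every kind of brain cell, so the values mix cells of the cortex with any attached membrane.

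Leptomeningeal fibroblasts lie in the pia and arachnoid and along the sheaths of penetrating vessels. They lay down a collagenous matrix, carry transporters for organic anions and amino acids, and secrete proteins into the cerebrospinal fluid. Ptgds encodes the lipocalin-type synthase that turns prostaglandin H2 into prostaglandin D2, a lipid known for promoting sleep, and the same protein carries retinoids and other small lipophilic molecules. Igfbp2 is a secreted protein that binds insulin-like growth factors. Lum (lumican) and Ogn (osteoglycin, also called mimecan) are small leucine-rich proteoglycans that bind collagen and help to order its fibrils. Of the 4, Ptgds is also made by oligodendrocytes and choroid plexus, and Igfbp2 by choroid plexus and astrocytes.

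Every gene in the table had been listed by the authors with a deposited p-value below 0.05 and a higher level in responders, so the direction of each member was fixed by that selection. Over the listed genes the libraries held 1989534 to 3486903 reads, and the authors' FPKM rest on a scale of 14981505 to 19298950 reads per library, which may or may not be the full depth. Responder replicate 3 stood apart, with the highest FPKM of the 6 libraries in 1204 of the 1375 genes. It had both the most listed reads, 3486903, and the smallest scale, 14981505. Its median log2 level over the nonresponder mean was 1.02, compared with 0.23 and 0.31 in responder replicates 1 and 2. Levels are given in FPKM, the authors' fragment counts scaled by gene length in kilobases and by 1 scale number per library, which allows genes of unequal length to be set side by side. In whole tissue, more cells of a type and more RNA per cell cannot be told apart.

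By the table's mm10 positions, Ptgds (ENSMUSG00000015090) is on the minus strand of chromosome 2, from 25466709 to 25470046. Igfbp2 (ENSMUSG00000039323) lies on chromosome 1 from 72824503 to 72852474, Lum (ENSMUSG00000036446) on chromosome 10 from 97565128 to 97572703 and Ogn (ENSMUSG00000021390) on chromosome 13 from 49608046 to 49624501, all on the plus strand. The 4 positions are those of GENCODE release M21, and the table's gene lengths of 1649, 1847, 2448 and 2566 bases equal the summed exons of each gene there. The span of Ogn is overlapped on the opposite strand by that of Cenpp. Whether their exons overlap was not checked, and the strand setting of the counting is not given in the sources used here. Lum is 46985 bases from Dcn, another proteoglycan gene that was in the table, and 34176 bases from Kera, which was not. Igfbp2 is 5458 bases from Igfbp5, and Ogn is 15224 bases from Omd and 40481 bases from Aspn. None of those neighbours was in the table.

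RefSeq promoter windows, 250 bases before to 50 after a gene start in build GRCm38.p6, were found for 3 of the 4 members. Igfbp2 has 2 such windows. They are shown to give the sequence at the starts of the genes whose levels are described below, and they are not set against those levels. The Ptgds window is chr2:25469700-25469999 on the minus strand and its start lies 297 bases inside the start of the gene in the table. The Igfbp2 windows are chr1:72824230-72824529 and chr1:72825137-72825436, with starts 23 and 884 bases inside the start in the table, and the Ogn window is chr13:49607765-49608064, all on the plus strand. Capitals mark matches, on either strand, to TGACTCA (the AP-1 motif), GGGCGG (the GC box), CACGTG (an E-box) and GGAATG (the TEAD motif). The matches do not overlap each other, and the motifs were chosen after the sequences had been read.
Ptgds: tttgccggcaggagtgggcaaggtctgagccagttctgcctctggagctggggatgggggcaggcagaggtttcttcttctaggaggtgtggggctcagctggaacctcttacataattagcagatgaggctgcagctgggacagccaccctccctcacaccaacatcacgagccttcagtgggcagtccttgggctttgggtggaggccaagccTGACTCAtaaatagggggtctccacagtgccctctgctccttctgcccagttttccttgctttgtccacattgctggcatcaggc
Igfbp2, first window: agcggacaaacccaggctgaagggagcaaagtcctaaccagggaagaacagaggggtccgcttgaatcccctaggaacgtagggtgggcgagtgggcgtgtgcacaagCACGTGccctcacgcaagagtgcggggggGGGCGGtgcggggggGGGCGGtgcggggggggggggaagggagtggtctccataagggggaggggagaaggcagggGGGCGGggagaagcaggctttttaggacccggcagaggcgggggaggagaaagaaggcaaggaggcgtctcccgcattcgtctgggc
Igfbp2, second window: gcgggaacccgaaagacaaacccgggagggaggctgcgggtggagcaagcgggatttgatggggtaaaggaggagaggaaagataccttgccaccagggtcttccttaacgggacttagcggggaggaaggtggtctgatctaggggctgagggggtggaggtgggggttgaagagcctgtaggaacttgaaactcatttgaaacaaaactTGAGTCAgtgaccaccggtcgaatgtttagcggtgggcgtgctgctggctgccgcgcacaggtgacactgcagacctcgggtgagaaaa
Ogn: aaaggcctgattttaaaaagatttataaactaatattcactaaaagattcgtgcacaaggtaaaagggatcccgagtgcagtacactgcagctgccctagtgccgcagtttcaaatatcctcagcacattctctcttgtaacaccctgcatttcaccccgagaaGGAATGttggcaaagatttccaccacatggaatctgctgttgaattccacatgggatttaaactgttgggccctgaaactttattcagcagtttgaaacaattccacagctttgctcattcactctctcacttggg

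The Ptgds window holds TGACTCA once, beginning 35 bases before the start, a motif in 5.20% of all 32851 RefSeq windows of this length. The second Igfbp2 window holds the same motif once, beginning 39 bases before its start, and has no match to GGGCGG or CACGTG. The first Igfbp2 window holds CACGTG once, 142 bases before the start, and GGGCGG in 3 places, the first beginning 113 bases before it. Those motifs occur in 7.15% and 35.7% of windows. The Ogn window holds GGAATG once, 86 bases before the start, a motif in 14.7% of windows. GC content was 57.7% for Ptgds, 67.0% and 57.3% for the first and second windows of Igfbp2 and 42.3% for Ogn. These matches describe the letters of the windows alone.

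Ptgds, the most abundant of the 4, was higher in responders by the adjusted p-value of the authors' deposited table, with a large spread among the responders. It stood at 38.7, 40.004 and 41.9 FPKM in nonresponder replicates 1, 2 and 3, and at 99.3, 47.7 and 115 FPKM in the same replicates of the responders. Responders 1 and 3 lay far above all nonresponders, and responder 2 lay just above them, so the groups did not overlap. The means were 40.2 ± 1.62 and 87.2 ± 35.1 FPKM (SD, n = 3 per group), or 2.17-fold, and the coefficient of variation was 4.02% in nonresponders and 40.2% in responders. Responder 2 was 1.19-fold above the nonresponder mean, and the mean of responders 1 and 3 was 2.24-fold above responder 2.

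Counting error was small for this gene, with 1133 to 3004 reads per library. The exact Poisson 95% interval of responder 2 ran from 45.1 to 50.4 FPKM, and that of nonresponder 3, the nearest mouse of the other group, from 39.7 to 44.2 FPKM; such intervals cover counting error only. Before scaling, responder 2 held 1285 Ptgds reads and nonresponder 3 held 1334, so the order of these mice depended on the library scale. So did the order of responder 1, with 3004 reads, and responder 3, with 2833. In the authors' deposited table Ptgds had a p-value of 1.61e-05 and an adjusted p-value of 0.0143, the 6th smallest p-value listed. In a refit of the deposited counts with edgeR's quasi-likelihood test, the log2 difference was 1.12 ± 0.31 (SE), with an unadjusted p of 0.00856 and a Benjamini-Hochberg adjusted p of 1 over the 14156 tests implied by the deposited values. Without responder replicate 3 the edgeR log2 difference was 0.87, with an unadjusted p of 0.0904, and without responder replicate 2 it was 1.41, with an unadjusted p of 0.000104.

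Igfbp2 was also higher in responders by the deposited adjusted p-value, with a smaller ratio and close replicates. It stood at 6.41, 6.30 and 6.28 FPKM in nonresponder replicates 1, 2 and 3, and at 9.27, 9.28 and 12.3 FPKM in responder replicates 1, 2 and 3. The nonresponders were nearly equal, responders 1 and 2 were nearly equal, responder 3 was the highest, and the groups did not overlap. The means were 6.33 ± 0.0653 and 10.3 ± 1.74 FPKM (SD, n = 3 per group), or 1.62-fold, on 200 to 340 reads per library. In the authors' deposited table the p-value was 0.00027 and the adjusted p-value 0.0460. The edgeR refit gave a log2 difference of 0.70 ± 0.22 (SE), with an unadjusted p of 0.0135 and an adjusted p of 1. Without responder replicate 3 the edgeR log2 difference was 0.55 ± 0.14 (SE), with an unadjusted p of 0.000156 and an adjusted p of 0.0350. Without nonresponder replicate 1, 2 or 3 the unadjusted edgeR p was 0.0502, 0.0568 or 0.0528, above 0.05 each time.

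Lum was scarce and had the largest ratio of the 4, without passing the adjusted threshold. It stood at 0.0875, 0.190 and 0.275 FPKM in nonresponder replicates 1, 2 and 3, on 4, 8 and 13 reads. In responder replicates 1, 2 and 3 it stood at 0.534, 0.725 and 1.58 FPKM, on 24, 29 and 58 reads. Every responder lay above every nonresponder, but the exact Poisson 95% interval of responder 1, from 0.342 to 0.795 FPKM, overlapped that of nonresponder 3, from 0.147 to 0.471 FPKM. The means were 0.184 ± 0.0940 and 0.947 ± 0.558 FPKM (SD, n = 3 per group), or 5.14-fold. The edgeR log2 difference was 2.33 ± 0.60 (SE), with an unadjusted p of 0.00549 and an adjusted p of 1. Without responder replicate 3 these were 1.75 ± 0.49 (SE), 0.000747 and 0.0904.

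The deposited adjusted p-value of Lum was 1 although its deposited p-value, 0.00014, was smaller than that of Igfbp2, which passed. Only 15 listed genes had a smaller p-value than Lum in the authors' deposited table, and 1252 with a larger one had an adjusted p-value below 1. An adjusted p-value of exactly 1 was listed for 108 genes, each with at most 23.8 reads per library on average. The other genes had at least 23.7, and Lum had 136 reads over the 6 libraries. How the authors set these values is not given in the sources used here.

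Ogn separated the responders from each other more than the groups. It stood at 0.167, 0.386 and 0.283 FPKM in nonresponder replicates 1, 2 and 3, on 8, 17 and 14 reads, and at 1.19, 0.262 and 1.43 FPKM in responder replicates 1, 2 and 3, on 56, 11 and 55 reads. Responders 1 and 3 were high, and responder 2 lay below nonresponders 2 and 3, so the groups overlapped. The means were 0.278 ± 0.109 and 0.961 ± 0.617 FPKM (SD, n = 3 per group), or 3.45-fold. The deposited p-value was 0.00429 and the deposited adjusted p-value 0.153, which did not pass. The edgeR log2 difference was 1.78 ± 0.66 (SE), with an unadjusted p of 0.0291 and an adjusted p of 1. Without responder replicate 2 it was 2.23 ± 0.47 (SE), with an unadjusted p of 0.00139. The unadjusted edgeR p was above 0.05 without nonresponder replicate 1, at 0.0911, without nonresponder replicate 3, at 0.0728, and without responder replicate 1, at 0.0821. With the replicate number as a block it was 0.0522.

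**Figure D1:**
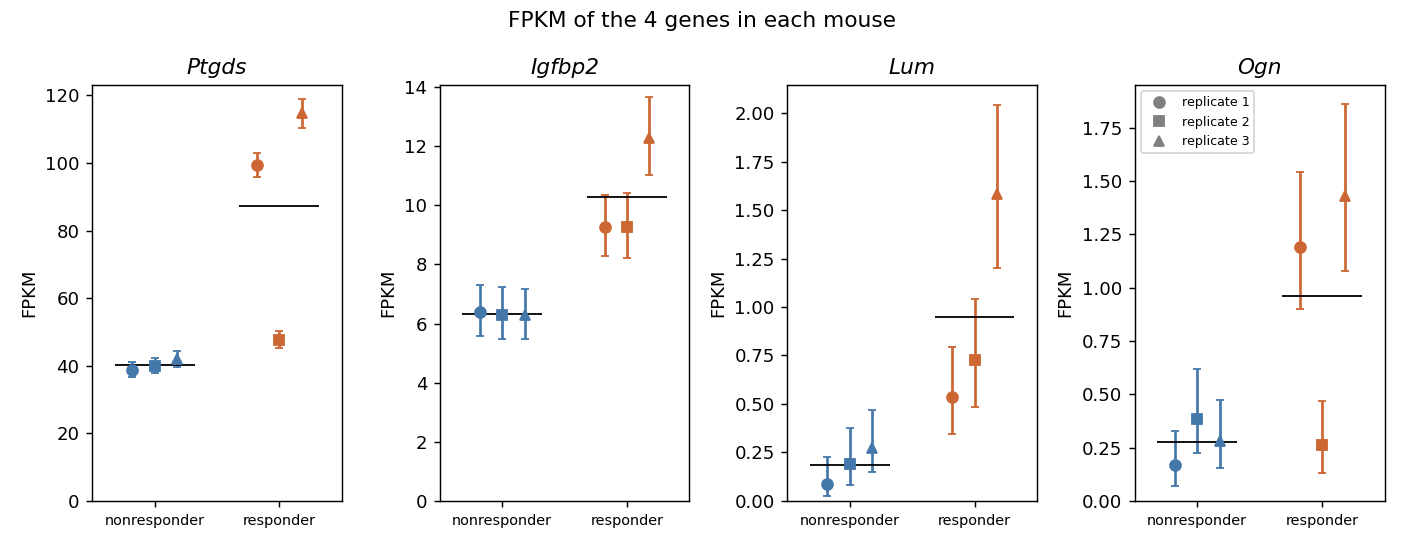
FPKM of Ptgds, Igfbp2, Lum and Ogn in each mouse, with marker shape for the replicate number, black lines for group means and bars for exact Poisson 95% intervals of the read count. Responder replicate 2 (square) lies near the nonresponders for Ptgds, at 47.7 FPKM, and among them for Ogn, at 0.262 FPKM, but well above them for Igfbp2 and Lum.

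By the deposited adjusted p-value, 2 of the 4 genes passed at 0.05, where 1.38% of all listed genes did; the 4 genes were chosen with these calls known. The groups were fully separated for 3 of the 4 genes, and for 73.5% of the table. By the unadjusted edgeR p, all 4 were under 0.05 with all libraries in the fit, against 26.5% of listed genes. At an adjusted edgeR p of 0.05 none of the 4 passed, and 0% of listed genes did; DESeq2 called 1 listed gene, none of the 4, and 584 had an unadjusted p under 0.05 by that tool. In mean FPKM 3 of the 4 were at least 2-fold higher in responders, against 13.3% of listed genes. An exact two-sided permutation test of mean log2 FPKM gave p = 0.10 for Ptgds, Igfbp2 and Lum, the smallest value that 3 mice against 3 allow, and p = 0.30 for Ogn.

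The size of these ratios is best read beside the abundance of each gene. Among the 229 listed genes with a mean of 40 FPKM or more, the median log2 ratio was 0.51 and Ptgds ranked 10th. Among the 106 genes under 1 FPKM with a ratio, the median log2 ratio was 1.75, and Lum and Ogn, at 2.36 and 1.79, ranked 28th and 51st. Igfbp2, at 0.70, ranked 306th of the 1023 genes in between, whose median was 0.56. The order of levels was Ptgds, then Igfbp2, then Lum and Ogn, and the latter pair did not differ beyond its spread in either group.

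**Figure D2:**
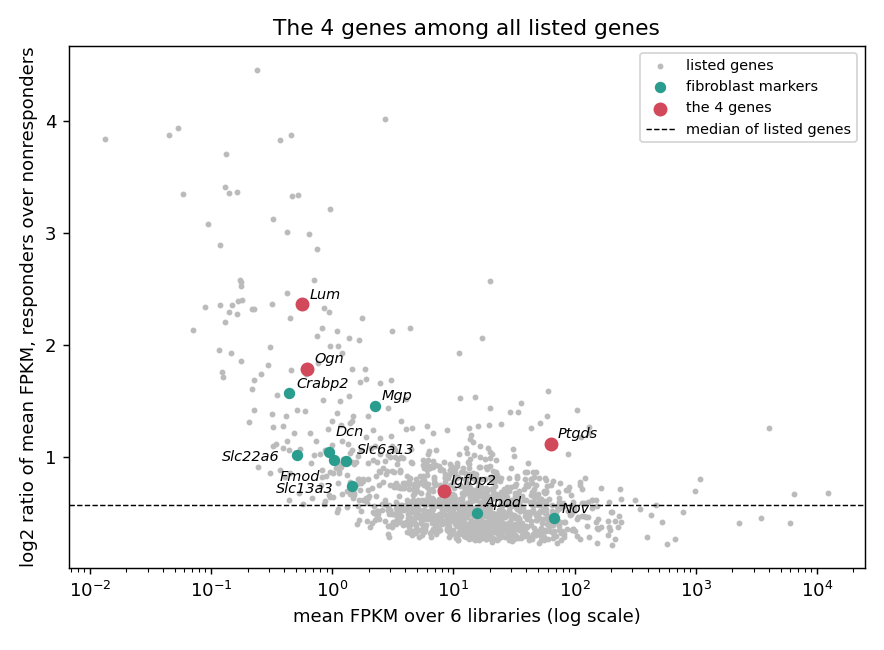
Log2 ratio of mean FPKM, responders over nonresponders, against mean FPKM over the 6 libraries (log scale) for the listed genes, with the 4 genes in red, other fibroblast markers in green and the median of listed genes, 0.57, as a dashed line. Lum and Ogn lie among scarce genes with similarly large ratios, while Ptgds ranks 10th of 229 genes with a mean of 40 FPKM or more.

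The scale used for the libraries moved all 4 genes. When the scale was taken from the listed genes themselves, by TMM or by median of ratios, the median log2 difference of listed genes fell from 0.57 to 0.01 in both cases. These scales treat the selected genes as unchanged on the whole, so they give differences relative to the other listed genes. Under median of ratios the edgeR log2 difference was 0.58 ± 0.24 (SE) for Ptgds, 0.18 ± 0.16 (SE) for Igfbp2, 1.73 ± 0.46 (SE) for Lum and 1.23 ± 0.57 (SE) for Ogn. The unadjusted p was 0.0369 for Ptgds, 0.272 for Igfbp2, 0.00452 for Lum and 0.0591 for Ogn. All 4 stayed above the median of the listed genes, and Igfbp2, at 0.18 against 0.01, by about its SE.

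**Figure D3:**
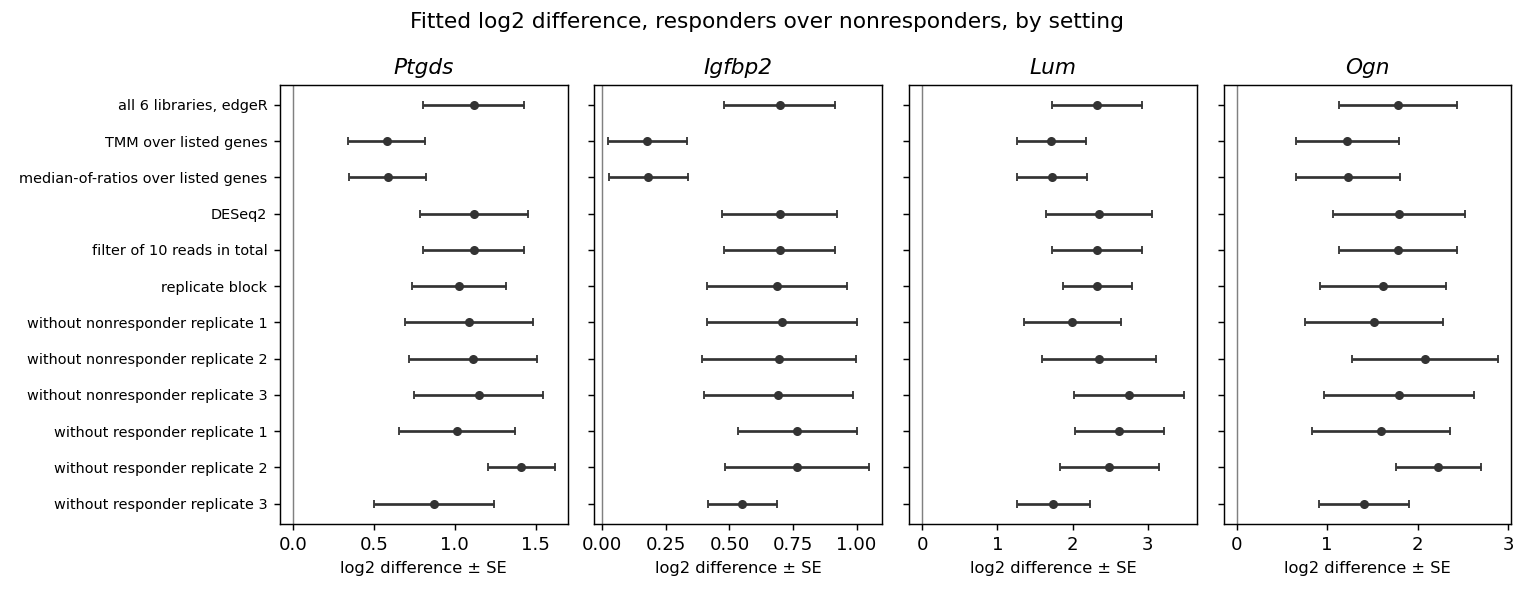
Fitted log2 difference, responders over nonresponders, with its SE for each of the 4 genes under the 12 settings tried; each panel has its own horizontal range. All estimates lie above 0, and those of Ptgds run from 0.58 with a scale taken from the listed genes to 1.41 without responder replicate 2.

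The 4 genes belong to a list of 28 markers of leptomeningeal and perivascular fibroblasts. The table as a whole lists 1375 genes, and 14156 tests were inferred from those with an adjusted p-value below 1. The other 108 listed genes, Lum and Crabp2 among them, may lie outside those tests. The 2 numbers therefore give no exact share. Without the 4 genes, 9 of 24 markers were in the table, and with them 13 of 28. The 13 had a median log2 ratio of 1.01, or 0.98 for the 9 markers other than the 4 genes, against 0.57 for all listed genes. By mean FPKM 7 of the 13 were at least 2-fold higher in responders, where 13.3% of listed genes were. Those 7 were Ptgds, Lum and Ogn, chosen with earlier results of these data known, and Dcn, Slc22a6, Crabp2 and Mgp. Part of the list is scarce: 5 markers had a mean under 1 FPKM, with a median of 1.57 where that of all such genes was 1.75, and all 5 were at least 2-fold higher, as were 87 of those 106 genes. The 6 markers from 1 to under 40 FPKM had a median of 0.85, against 0.56. Of these 6, 1 was at least 2-fold higher, as were 82 of 1023 genes. The 2 markers at 40 FPKM or more had a median of 0.78, against 0.51. Of that pair 1 was at least 2-fold higher, as were 11 of 229 genes. Only Ptgds and Igfbp2 passed the deposited adjusted threshold. Groups did not overlap in 10 of the 13 markers, the exceptions being Ogn, Slc13a3 and Apod, a share near the 73.5% of the whole table. The 15 markers outside the table, among them the collagen genes Col1a1, Col1a2 and Col3a1, were not analysed here. The list is not specific to these cells: Apod is also made by oligodendrocytes, Slc13a3 by astrocytes and Nov by cortical neurons.

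Dcn (decorin) and Fmod (fibromodulin), which with Lum and Ogn made 4 of 17 small leucine-rich proteoglycans in the table, regulate collagen fibrils. Dcn stood at 0.348, 0.529 and 0.959 FPKM in nonresponders 1, 2 and 3 and at 0.999, 0.964 and 1.82 FPKM in responders 1, 2 and 3, a 2.06-fold ratio of means with groups that barely separated. Fmod stood at 0.292, 1.02 and 0.784 FPKM in nonresponders and 1.62, 1.07 and 1.43 FPKM in responders, in the same order. Summed over the 4 proteoglycans, the level was 0.894, 2.13 and 2.30 FPKM in nonresponders 1, 2 and 3 and 4.34, 3.02 and 6.26 FPKM in responders 1, 2 and 3. Neither Dcn nor Fmod passed in the authors' deposited table, with adjusted p-values of 0.184 and 0.242. Mgp (matrix Gla protein), an inhibitor of calcification, stood at 0.631, 1.42 and 1.53 FPKM in nonresponders and 4.55, 1.75 and 3.54 FPKM in responders, with a deposited adjusted p-value of 0.108.

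Of the transporters on the marker list, 3 were in the table and none of them passed. Slc6a20a, Slc22a8 and Slc47a1 were not in the table. Slc6a13, a carrier of GABA and taurine, had a ratio of 1.95-fold, with 0.442, 1.00 and 1.18 FPKM in nonresponders and 1.67, 1.31 and 2.14 FPKM in responders. Slc22a6, an organic anion transporter, spanned 0.199 to 0.450 FPKM in nonresponders and measured 1.07, 0.456 and 0.547 FPKM in responders 1, 2 and 3. Slc13a3, a dicarboxylate transporter, stood at 0.811 to 1.36 FPKM in nonresponders and at 2.36, 1.15 and 1.91 FPKM in responders 1, 2 and 3. In the latter pair responder 1, not responder 3, was the highest library. The deposited adjusted p-values of the 3 transporters lay between 0.210 and 0.285.

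Of the other markers, Nov (CCN3), a matricellular protein, spanned 52.9 to 63.6 FPKM in the nonresponders, below the 64.6 to 95.4 FPKM of the responders. Apod, a lipocalin like Ptgds, stood at 11.7 to 14.0 and 13.9 to 24.9 FPKM, and its groups overlapped through responder 2. Crabp2, which binds retinoic acid, had 3 to 18 reads per library and a deposited adjusted p-value of 1.

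Over the 13 markers, 2 libraries took the low places. Nonresponder replicate 1 was the lowest of the 6 libraries in 11 of the 13, and in 327 of all 1375 listed genes. Responder replicate 2 was the lowest responder in 10 of the 13, and in 417 of all listed genes. The marker medians of log2 level over the nonresponder mean were -0.74, 0.05 and 0.17 in nonresponders 1, 2 and 3 and 1.21, 0.55 and 1.29 in responders 1, 2 and 3. Igfbp2 did not share the low value in nonresponder 1, where it was at 0.02. In responder 2 it was at 0.55, equal to the marker median, and in responder 1 it was also at 0.55, below the marker median there. Ptgds was at -0.06 in nonresponder 1, and at 0.25 in responder 2.

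**Figure D4:**
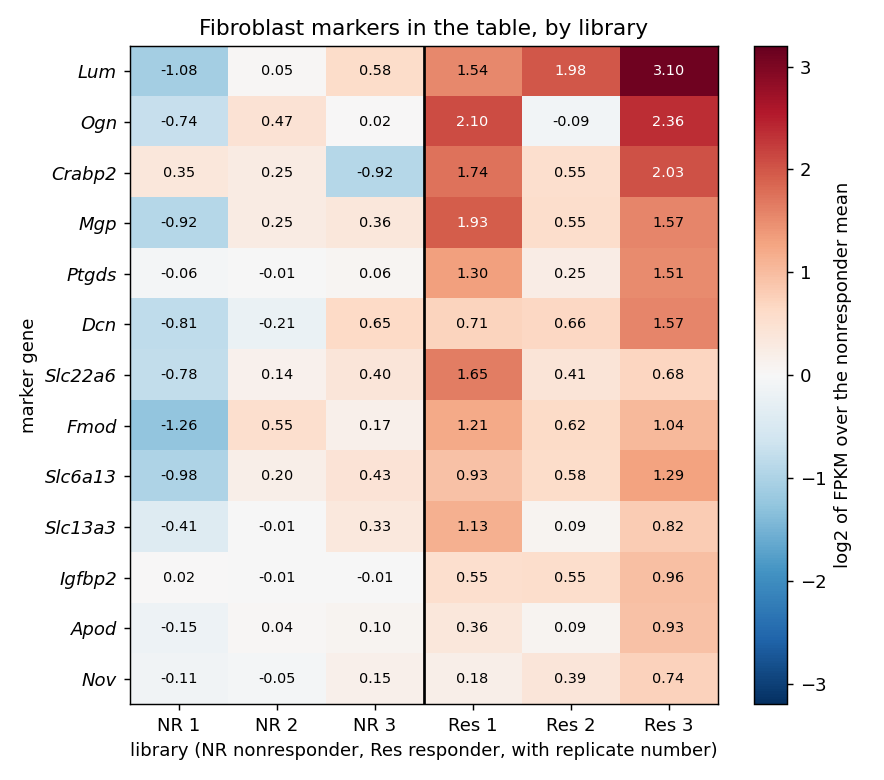
Log2 of FPKM over the nonresponder mean for the 13 fibroblast markers in the table (rows, ordered by the ratio of group means) in each library (columns). Nonresponder 1 is the lowest library in 11 of the 13 markers and responder 2 is the lowest responder in 10 of the 13, while Igfbp2 was not lowest in nonresponder 1 and was nearly equal in responders 1 and 2.

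Leaving out nonresponder replicate 1, the marker median was 0.74, against 0.59 for all listed genes. Without responder replicate 3 it was 0.87, against 0.26 for all listed genes, where Igfbp2 stood at 0.55, Lum at 1.77 and Ogn at 1.38 by the ratio of mean FPKM. Without responder replicate 2 the groups separated in all 13 markers, against 82.6% of listed genes. That mouse was the lowest responder in 10 of the 13, so leaving it out favours separation. Without responder replicate 1 or 3 the groups separated in 10 of 13, against 87.7% and 74.1%. Without nonresponder replicate 1, 2 or 3 the count was 10, 10 and 12 of 13, against 84.4%, 76% and 80%. The part that these single libraries play in the group difference was not tested further.

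Likeness of profile was measured as the root mean square difference between log2 FPKM values over the 6 libraries, after centring each gene on its own mean, among the 1304 genes with a read in every library and at least 60 reads in total. Between the 4 genes it was smallest for Ptgds and Igfbp2, at 0.37, and 0.57 for Ptgds and Ogn; the other pairs lay between 0.90 and 1.03. The genes most like Ogn were Prg4 (lubricin) at 0.43, Mgp at 0.45, Gpx8 at 0.55, Ptgds at 0.57 and the pseudogene Rpl38-ps2 at 0.58. Ptgds was nearest to Cebpzos, Nme6, Mrps16, Ccdc51 and Lyplal1, at 0.23 to 0.26. Igfbp2 was nearest to Pdia6 at 0.04, Pnp at 0.06, Xbp1 at 0.07, Clic1 at 0.08 and Rsl1 at 0.09, and Ptgds was 1142nd in that order. Of these, Pdia6 acts in protein folding in the endoplasmic reticulum, and Xbp1 encodes a transcription factor. Lum was nearest to A330048O09Rik at 0.39, followed by Gm12191, Gpx8, Rpl19-ps11 and 4930522L14Rik, at 0.56 to 0.66. The values of likeness rest on 6 libraries that include responder replicate 3, and have no test.

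Partners in the pathways of the 4 genes were also counted, beside 1375 listed genes and 14156 implied tests, which may not cover every listed gene. Of 26 genes of prostaglandin synthesis, sensing and breakdown, 4 were listed, and Ptgds alone passed. Tbxas1 (thromboxane synthase) stood at 0.177, 0.122 and 0.205 FPKM in nonresponders and 0.324, 0.310 and 0.316 FPKM in responders, on 19 to 54 reads, with a deposited adjusted p-value of 0.223. Hpgd, which inactivates prostaglandins, spanned 2.31 to 3.82 FPKM in the nonresponders, overlapping the 2.59 to 8.01 FPKM of the responders. Ptges3, a cochaperone of Hsp90 that is also described as a prostaglandin E synthase, stood at 40.1 to 43.0 and 47.6 to 87.8 FPKM. The cyclooxygenases Ptgs1 and Ptgs2 and the receptors Ptgdr and Ptgdr2 are not in the table and have no value here.

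The list of lipocalins and genes of retinoid transport and metabolism held 17 genes, with the fatty acid-binding protein gene Fabp7 counted among them. Of the 17, 6 were listed and 2 passed in the authors' deposited table, Ptgds and Rlbp1. Rlbp1, a retinaldehyde-binding protein, stood at 4.78, 3.98 and 3.93 FPKM in nonresponders 1, 2 and 3 and 6.75, 6.40 and 8.18 FPKM in responders 1, 2 and 3, with an adjusted p-value of 0.0244. Rbp4, the plasma carrier of retinol, stood at 11.0 to 12.3 and 13.4 to 27.2 FPKM and did not pass, at 0.160. Fabp7, the brain fatty acid-binding protein, stood at 10.1 and 12.0 FPKM in responders 1 and 2 and at 61.9 FPKM in responder 3, with 5.68 to 8.46 FPKM in nonresponders. Of 21 genes of the insulin-like growth factor system, Igfbp2 and Pappa were listed. Pappa, a protease that cleaves binding proteins of these factors, had 0, 1 and 0 reads in nonresponders and 5, 8 and 1 in responders.

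Markers of other cell types that can neighbour or make these transcripts were counted in the same table. None of 13 oligodendrocyte, 12 endothelial, 9 mural cell, 7 red blood cell and 12 cortical neuron markers was listed, nor any of 24 collagens and other fibrillar matrix genes. They have no value here, so the labelled tissue could not be checked by its neuronal markers. Of 13 choroid plexus markers only Kl (klotho) was listed, with 0.256 to 0.474 FPKM in the nonresponders against 0.525 to 0.538 FPKM in the responders. Of 9 border macrophage markers, Pf4 and F13a1 were listed, and the groups overlapped in their summed level. The lowest responder sum, 1.318 FPKM in responder 2, was just under the highest nonresponder sum, 1.324 FPKM in nonresponder 2. Sums reached down to 0.369 FPKM in nonresponder 3 and up to 4.07 FPKM in responder 3. Pf4 made up most of the sum in every library, and its groups overlapped at a 2.91-fold ratio of means. F13a1, on 11 to 37 reads per library, was 2.48-fold higher in responders without overlap. Of 12 astrocyte markers, Aqp4, Gfap, Aldoc and Gjb6 were listed, and their sum was 192 to 217 FPKM in the nonresponders against 245 to 333 FPKM in the responders. Aldoc made up most of that sum and was 1.35-fold higher in responders. Gjb6, at 1.65-fold, was the only 1 of the 4 to pass the deposited adjusted threshold, at 0.0388. The groups did not overlap in any of the 4, as for 73.5% of the whole table. Astrocytes also make Igfbp2, and the part of these cells in its higher level was not tested.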

How the data were processed

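Counts of reads per gene were deposited for 3 nonresponder and 3 responder libraries, and the replicate numbers come from the sample titles. Each library is a different mouse per the labels' protocols. Per the submitters' processing notes the build is mm10; no source used here gives the aligner, the counter or the test behind the authors' p-values. FPKM values by the authors equal count, gene length and 1 scale number per library (14981505 to 19298950 reads), per the file headers and values. The authors' deposited log2 fold change is that of nonresponders over responders and was not used for ratios. Deposited p-values and adjusted p-values were copied. From genes with an adjusted p-value below 1, 14156 tests were inferred by rank (30 of 60 genes gave a whole rank within 0.01, and the next best number 14). A further 6 columns of values per sample match no label and were not used.

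Ratios are of mean FPKM, without a pseudocount. edgeR 4.0.16 was run on the counts of all 1375 genes in the table (robust quasi-likelihood, two-sided; scale of the authors as library size), and SE is the log2 difference over the square root of F. Benjamini-Hochberg adjustment counted all inferred tests. The authors had already picked the genes by p-value in these mice, so the refit describes them and is no independent test. Alternatives were DESeq2 1.42.0, other scales, a filter of 10 reads, pseudocounts, a replicate block and leaving out each library. Both fits were also run on simulated data. Those replicates varied less than the fits found for the 4 genes, and no simulated library stood apart. The members and lists were chosen with earlier results of these data known. Named genes were the members, the listed genes of their pathway lists, up to 4 listed genes of each other list and the 5 nearest profiles per member.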

Additional observations from a re-analysis of the deposited data

How the results depend on the processing

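The log2 differences of Ptgds, Igfbp2, Lum and Ogn stayed above 0 in all settings run. Leaving out each library in turn, they ranged from 0.87 to 1.41 for Ptgds, 0.55 to 0.77 for Igfbp2, 1.75 to 2.75 for Lum and 1.41 to 2.23 for Ogn. Igfbp2 alone passed an adjusted edgeR p of 0.05, at 0.0350 without responder replicate 3, where 75 listed genes did. With a pseudocount of 1 FPKM the log2 ratio of Lum was 0.72 and that of Ogn 0.62, in place of 2.36 and 1.79, since both lie under that value in most libraries. The marker median ranged from 0.74 to 1.24 and the count of separated markers, added after seeing the data, from 10 to 13 when each library was left out.

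The count of listed genes at an unadjusted edgeR p of 0.05 was 365 with all libraries, 70 with either scale taken from the listed genes, 584 by DESeq2 and 87 to 828 without single libraries; the cause was not tested. With a replicate block it was 222, and the log2 differences were 1.03 for Ptgds, 0.69 for Igfbp2, 2.33 for Lum and 1.62 for Ogn, none past the adjusted threshold. Correlations of deviations between same-numbered mice were -0.13, -0.08 and -0.02. Taken over genes picked for a group difference, with 3 mice per group, they cannot show whether same-numbered mice were paired. Depth limits Lum and Ogn, on 4 to 58 reads per library.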
